A study of Mus musculus with 18 samples.

Results

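The 10 genes examined here encode the enzymes that assemble triglyceride in the liver and those that break it down: the acyltransferases Gpam, Agpat2, Mogat1, Dgat1 and Dgat2, the phosphatidate phosphatases Lpin1 and Lpin2, the lipases Pnpla2 and Lipe, and the lipase inhibitor G0s2. They were chosen by name, and every probe assigned to them through the transcript identifier on the array was read, which gave 12 probes for 10 of the 21153 genes that could be named, 19597 of which had a probe that passed the detection filter. Agpat2 and Lpin1 carried 2 probes and the other 8 genes carried 1. All 12 probes passed the filter, and 11 of them were well above background on all 18 arrays, the exception being the second Lpin1 probe. Mogat1 and Gpam had already been singled out by the study from these same arrays, so their direction here is not independent evidence.

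Liver RNA came from male C57BL/6 mice, 1 array per mouse, in 4 groups that differed in diet and in exposure to methotrexate, an inhibitor of folate metabolism used in chemotherapy. From 6 weeks of age the animals received food in which fat gave either 10% (LFD) or 60% (HFD) of the energy. After 10 weeks on that food, the LFD-MTX50 and HFD-MTX50 groups were given methotrexate at 50 mg/kg into the peritoneum in 5 rounds, and livers were taken a week after the last round. The LFD and HFD groups received no drug, and the labels name no vehicle injection for them. The untreated groups held 4 mice each and the treated groups 5 each, none of which carried tumors per the study's text. All mice were males of 1 inbred strain.

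Triglyceride is assembled by adding fatty acyl chains to a glycerol backbone. In the main route of the liver, glycerol-3-phosphate is acylated by enzymes such as Gpam, acylated again by the Agpat enzymes to phosphatidate, dephosphorylated to diacylglycerol by the lipins and acylated a last time by Dgat1 or Dgat2, whereas Mogat1 makes diacylglycerol directly from monoacylglycerol. Stored triglyceride is opened by the lipase Pnpla2 (ATGL), which G0s2 binds and inhibits, and the resulting diacylglycerol is the preferred substrate of Lipe (hormone-sensitive lipase).

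The values are spot intensities put on the log2 scale and given relative to the 75th percentile of the same array, so that a level of 0 equals that percentile and a difference of 1 is a doubling. That percentile lay between 1202.7 and 2263.0 intensity units, 83.9 to 90.6% of probes were well above background and 0 spots were saturated. The label of liver held, since 6 of 6 hepatocyte markers were well above background on every array and their summed level, in multiples of the 75th percentile, was 695 to 1120. The arrays lay on 6 slides, and only 1 slide held 2 groups, with HFD mice 3 and 4 beside HFD-MTX50 mice 1 and 2. All LFD mice shared 1 slide that held no other group. In bulk tissue, fewer cells of a type and less RNA per cell cannot be told apart.

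To show what lies around the start sites of genes that moved with methotrexate, the RefSeq windows (assembly GRCm38.p6, 250 bases before to 50 after the start site) are printed for Mogat1 (chr1:78510810-78511109, + strand), Agpat2 (chr2:26604368-26604667, - strand) and G0s2 (chr1:193273139-193273438, - strand), whose levels were lower with methotrexate on both diets, and for Lpin1 (chr12:16610917-16611216, - strand), whose level was higher on the low fat diet. Each runs 5′ to 3′ along the gene's strand. Capitals mark the GC box letters, GGGCGG or, for a match on the opposite strand, CCGCCC. In the same way capitals mark the CCAAT box, written CCAAT or, on the opposite strand, ATTGG.
Mogat1: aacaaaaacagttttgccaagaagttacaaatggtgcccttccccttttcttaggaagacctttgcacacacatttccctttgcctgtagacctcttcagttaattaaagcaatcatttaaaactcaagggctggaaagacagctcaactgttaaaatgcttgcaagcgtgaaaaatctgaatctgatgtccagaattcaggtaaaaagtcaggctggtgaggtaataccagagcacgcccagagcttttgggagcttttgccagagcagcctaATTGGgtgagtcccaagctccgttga
Agpat2: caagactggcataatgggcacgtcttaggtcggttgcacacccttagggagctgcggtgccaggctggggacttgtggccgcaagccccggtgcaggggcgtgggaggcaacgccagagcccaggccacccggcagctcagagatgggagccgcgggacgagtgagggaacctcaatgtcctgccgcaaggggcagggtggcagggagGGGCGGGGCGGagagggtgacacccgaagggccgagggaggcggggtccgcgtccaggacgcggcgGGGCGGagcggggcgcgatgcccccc
G0s2: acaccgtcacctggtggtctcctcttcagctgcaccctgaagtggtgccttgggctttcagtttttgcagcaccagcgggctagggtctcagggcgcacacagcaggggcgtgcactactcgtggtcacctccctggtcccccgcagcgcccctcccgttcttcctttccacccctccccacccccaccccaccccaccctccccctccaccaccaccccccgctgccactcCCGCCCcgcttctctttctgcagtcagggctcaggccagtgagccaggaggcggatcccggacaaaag
Lpin1: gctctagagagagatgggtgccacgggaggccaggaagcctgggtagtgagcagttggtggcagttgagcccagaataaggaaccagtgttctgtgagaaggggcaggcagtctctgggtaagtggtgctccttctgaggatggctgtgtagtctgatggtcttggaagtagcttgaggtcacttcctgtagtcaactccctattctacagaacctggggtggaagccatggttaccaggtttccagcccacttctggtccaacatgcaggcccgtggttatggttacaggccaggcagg
The Agpat2 window held the GC box letters 3 times, with 2 of the matches overlapping, and the G0s2 window held them once, while 35.7% of all 32851 windows of this length held them at least once. The overlapping Agpat2 matches began at -42 and -37 from the start site, and the other began downstream of it at 25. Mogat1 had the CCAAT letters once, at 25 downstream of the start site, and 37.4% of all windows held them. The Lpin1 window held none of the 7 motifs searched on both strands, which besides the GC box and the CCAAT box were the sterol response element (TCACNCCAC, in 1.24% of all windows), the E-box (CACGTG, 7.15%), the TATA box (TATAAA, 13.6%), the forkhead motif (TGTTTAC, 3.65%) and the direct repeat bound by nuclear receptors (DR1, 0.0396%). A window was found for 8 of the 10 genes. A match describes the letters only, and the lack of one says only that these letters are not in the window.

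**Figure D1:**
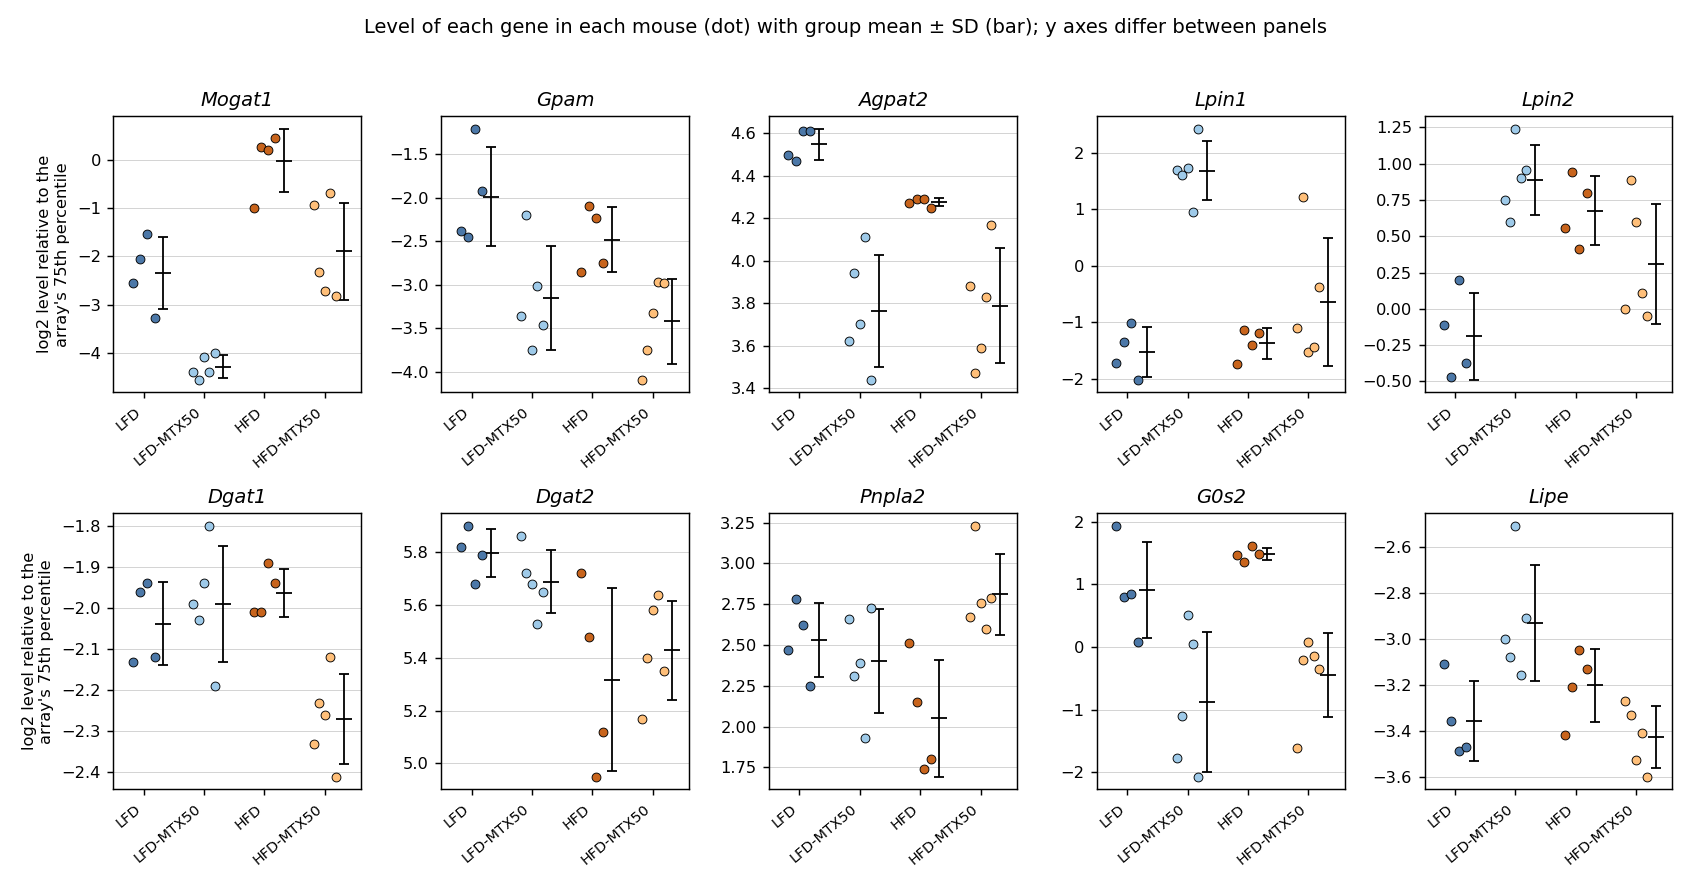
Level of each of the 10 genes in each mouse (1 dot per mouse, with the untreated and the treated group of each diet side by side), as log2 relative to the array's 75th percentile, with group mean ± SD beside the dots. The y axes differ between panels. The 5 LFD-MTX50 mice stand above all LFD mice for Lpin1 (0.95 to 2.42 against -2.01 to -1.01), and the 4 HFD mice stand above all HFD-MTX50 mice for G0s2 (1.36 to 1.61 against -1.61 to 0.08).

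Mogat1, which supplies diacylglycerol from monoacylglycerol, rose with the high fat diet and fell with methotrexate on both diets. Its level was -2.54, -2.05, -1.53 and -3.27 in the 4 LFD mice and -0.99, 0.26, 0.20 and 0.46 in the 4 HFD mice, so that every HFD liver lay above every LFD liver. The HFD mean was 5.04-fold higher (log2 difference 2.33 ± 0.47 SE, limma adjusted p = 0.0047, exact permutation p = 0.029).

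After methotrexate, Mogat1 was -4.40, -4.55, -4.08, -4.39 and -4.00 in the LFD-MTX50 mice, all below the lowest LFD mouse, a 3.82-fold fall (-1.93 ± 0.44 SE, limma adjusted p = 0.007, exact permutation p = 0.016). The HFD-MTX50 mice read -0.94, -2.32, -2.71, -0.69 and -2.81, and mice 1 and 4 reached into the HFD range through the lowest HFD mouse. The mean fell 3.67-fold (-1.88 ± 0.44 SE, limma adjusted p = 0.019, exact permutation p = 0.048). The order of the group means was therefore HFD (-0.02 ± 0.65 SD, n = 4), HFD-MTX50 (-1.89 ± 1.01, n = 5), LFD (-2.35 ± 0.74, n = 4) and LFD-MTX50 (-4.28 ± 0.24, n = 5), in which the neighbours HFD-MTX50 and LFD differed by 0.46 ± 0.44 SE and did not pass the test (limma adjusted p = 0.547).

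The adipocyte marker list differed between the same groups. The summed level of its 6 genes, all well above background on every array, lay at 0.812 to 1.12 in LFD mice, at 5.13 to 7.67 in HFD mice and at 1.29 to 2.41 in HFD-MTX50 mice, while LFD-MTX50 mice had 1.04 to 2.10. Most of the HFD sum came from Cfd, which rose by 5.99 with the high fat diet and fell by 5.32 with methotrexate on it (log2, limma adjusted p = 0.0025 and 0.0067). With the high fat diet Lep (2.30, limma adjusted p = 0.0025) and Plin1 (0.64, limma adjusted p = 0.007) rose too, whereas Fabp4 (1.01), Adipoq (-0.04) and Retn (-0.23) did not pass the test. With methotrexate on the high fat diet Adipoq rose by 0.88 (limma adjusted p = 0.016) and Lep (-0.87), Plin1 (-0.41), Fabp4 (-0.45) and Retn (0.43) did not pass. On the low fat diet, where Mogat1 fell, methotrexate came with higher Lep (1.46), Adipoq (0.68) and Plin1 (0.66; limma adjusted p = 0.0079, 0.020 and 0.0043). Cfd was lower there (-1.57, limma adjusted p = 0.176) but did not pass the test, nor did Fabp4 (0.49) and Retn (0.19). The part of these markers in the Mogat1 result was not tested.

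Gpam, the mitochondrial enzyme of the first acylation, was lower after methotrexate on both diets and passed the test on the low fat diet. It was -2.38, -2.45, -1.21 and -1.92 in the LFD mice and -3.36, -2.20, -3.75, -3.01 and -3.46 in the LFD-MTX50 mice, where only mouse 2 overlapped the LFD range. The fall was 2.25-fold (-1.17 ± 0.32 SE, limma adjusted p = 0.016, exact permutation p = 0.048), and the call was lost without LFD mouse 3 (limma adjusted p = 0.059).

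In the HFD mice Gpam was -2.85, -2.10, -2.23 and -2.75, and in the HFD-MTX50 mice -4.09, -3.75, -3.32, -2.97 and -2.98. The groups did not overlap, but the difference of -0.94 ± 0.32 SE, 1.92-fold, missed the threshold (limma adjusted p = 0.067, exact permutation p = 0.016) and became 0.33 under normexp, a model-based background correction. Diet alone gave -0.49 ± 0.34 SE with overlapping groups (limma adjusted p = 0.279). Against the untreated LFD mice, the HFD-MTX50 mice were 2.70-fold lower without overlap (-1.43 ± 0.32 SE, limma adjusted p = 0.019, exact permutation p = 0.016), a call that was lost without LFD mouse 3 or 4 and a difference that changed sign under normexp (0.46).

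Agpat2, which carries out the second acylation, fell with methotrexate on both diets, and both of its probes passed the test each time. The brighter probe read 4.5, 4.47, 4.61 and 4.61 in LFD, 3.62, 3.94, 3.70, 4.11 and 3.44 in LFD-MTX50, 4.27, 4.29, 4.29 and 4.25 in HFD and 3.88, 3.47, 3.59, 3.83 and 4.17 in HFD-MTX50. Every treated liver lay below every untreated liver of its diet. On the low fat diet the fall was 1.72-fold (-0.78 ± 0.14 SE, limma adjusted p = 0.0023, exact permutation p = 0.016). It was 1.40-fold with the high fat diet (-0.49 ± 0.14 SE, limma adjusted p = 0.037, exact permutation p = 0.016), where the call on this probe was lost without any 1 of HFD mice 2 to 4 and HFD-MTX50 mice 2 to 4. On the second probe the differences were -0.62 ± 0.15 and -0.71 ± 0.15 SE (limma adjusted p = 0.009 and 0.013). The effect of diet, -0.28 ± 0.15 SE, did not pass the test although the HFD and LFD mice did not overlap (limma adjusted p = 0.162), and on the second probe it was -0.04 ± 0.16 SE.

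Lpin1, the lipin that removes phosphate from phosphatidate and also acts as a transcriptional coactivator, showed the widest difference of the 10 genes. It was -1.72, -1.34, -1.01 and -2.01 in the LFD mice and 1.69, 1.61, 1.73, 0.95 and 2.42 in the LFD-MTX50 mice, with no overlap. The rise was 9.20-fold (3.20 ± 0.44 SE, limma adjusted p = 5.9e-04, exact permutation p = 0.016), and the dimmer second probe rose 5.61-fold (2.49 ± 0.39 SE, limma adjusted p = 0.0012), being well above background in 3 of 4 LFD and 5 of 5 LFD-MTX50 mice.

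On the high fat diet, Lpin1 stood at -1.74, -1.14, -1.40 and -1.19 in HFD and -1.09, 1.21, -1.52, -1.43 and -0.38 in HFD-MTX50. Only mouse 2 of the treated group reached the levels of the LFD-MTX50 mice, and the difference of 0.72 ± 0.44 SE did not pass the test (limma adjusted p = 0.266). Untreated HFD and LFD mice differed by 0.15 ± 0.46 SE (limma adjusted p = 0.819).

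Lpin2, the other lipin measured, rose with the high fat diet and, on the low fat diet, with methotrexate. Its level was -0.11, -0.47, 0.20 and -0.37 in LFD, 0.75, 0.60, 1.24, 0.90 and 0.96 in LFD-MTX50 and 0.56, 0.94, 0.41 and 0.80 in HFD, and the LFD mice lay below both other groups without overlap. Methotrexate gave a 2.11-fold rise (1.08 ± 0.20 SE, limma adjusted p = 0.0027, exact permutation p = 0.016) and diet a 1.82-fold rise (0.87 ± 0.21 SE, limma adjusted p = 0.0098, exact permutation p = 0.029). In the HFD-MTX50 mice Lpin2 ranged from -0.05 to 0.89 with a median of 0.11 and overlapped HFD, the difference being -0.37 ± 0.20 SE (limma adjusted p = 0.220).

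Dgat1 and Dgat2, which add the last acyl chain, showed small differences. Dgat1 was -2.13, -1.96, -1.94 and -2.12 in LFD, -2.01, -2.01, -1.89 and -1.94 in HFD and -2.33, -2.23, -2.26, -2.12 and -2.41 in HFD-MTX50, where all treated mice lay below all HFD mice. The fall was 1.24-fold (-0.31 ± 0.09 SE, limma adjusted p = 0.039, exact permutation p = 0.016), no longer passed the test with quantile normalization or median scaling of the arrays, and changed sign under the background model normexp (0.36). The call was also lost without any 1 of LFD-MTX50 mouse 2, HFD mice 2 to 4 and HFD-MTX50 mice 3 and 5. In LFD-MTX50 Dgat1 ranged from -2.19 to -1.80 and differed from LFD by 0.05 ± 0.09 SE (95% interval -0.14 to 0.24). Dgat2 was 5.82, 5.90, 5.68 and 5.79 in LFD and 5.72, 5.48, 4.95 and 5.12 in HFD, a 1.39-fold fall with overlapping groups (-0.48 ± 0.15 SE, limma adjusted p = 0.025, exact permutation p = 0.057). The Dgat2 call was lost without LFD mouse 2 or 4 or HFD mouse 3 or 4 (limma adjusted p up to 0.099). With methotrexate Dgat2 differed by -0.11 ± 0.14 SE on the low fat diet (95% interval -0.40 to 0.19) and by 0.11 ± 0.14 SE on the high fat diet (-0.18 to 0.40), and neither passed the test.

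Of the lipolysis genes, Pnpla2, the lipase that starts the breakdown of stored triglyceride, rose with methotrexate on the high fat diet. It was 2.51, 2.15, 1.74 and 1.80 in HFD and 2.67, 3.23, 2.76, 2.60 and 2.79 in HFD-MTX50, with every treated mouse above every untreated one. The rise was 1.69-fold (0.76 ± 0.19 SE, limma adjusted p = 0.023, exact permutation p = 0.016). With the low fat diet the untreated mice spanned 2.25 to 2.78 and the treated mice 1.93 to 2.73, a difference of -0.13 ± 0.19 SE (95% interval -0.53 to 0.27). The high fat diet alone gave -0.48 ± 0.20 SE, which did not pass the test (limma adjusted p = 0.078).

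G0s2, the inhibitor of Pnpla2, fell with methotrexate on both diets. In the high fat groups it was 1.47, 1.36, 1.61 and 1.49 in HFD and -1.61, -0.21, 0.08, -0.14 and -0.35 in HFD-MTX50, a 3.80-fold fall without overlap (-1.93 ± 0.49 SE, limma adjusted p = 0.024, exact permutation p = 0.016). In the low fat groups it was 1.93, 0.80, 0.85 and 0.07 in LFD and -1.78, -1.10, 0.51, 0.04 and -2.07 in LFD-MTX50, a 3.47-fold fall (-1.80 ± 0.49 SE, limma adjusted p = 0.015, exact permutation p = 0.032) in which LFD-MTX50 mouse 3 overlapped the LFD range. The 4 HFD mice were close to each other (SD 0.10), whereas the SD was 0.77 in LFD, 1.13 in LFD-MTX50 and 0.67 in HFD-MTX50. For diet alone the G0s2 difference was 0.57 ± 0.51 SE and did not pass the test (limma adjusted p = 0.408).

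Lipe, which hydrolyses diacylglycerol, rose with methotrexate on the low fat diet by a small amount. It was -3.11, -3.36, -3.49 and -3.47 in LFD and -3.0, -3.08, -2.51, -3.16 and -2.91 in LFD-MTX50, where mouse 4 overlapped the LFD range, a 1.34-fold difference (0.42 ± 0.13 SE, limma adjusted p = 0.025, exact permutation p = 0.032). The call was lost with quantile normalization and with median scaling, and without any 1 of LFD mice 2, 3 and 4 and LFD-MTX50 mouse 3 (limma adjusted p up to 0.072). On the high fat diet Lipe ranged from -3.42 to -3.05 in HFD and from -3.60 to -3.27 in HFD-MTX50, and the difference of -0.22 ± 0.13 SE did not pass the test (limma adjusted p = 0.247).

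**Figure D2:**
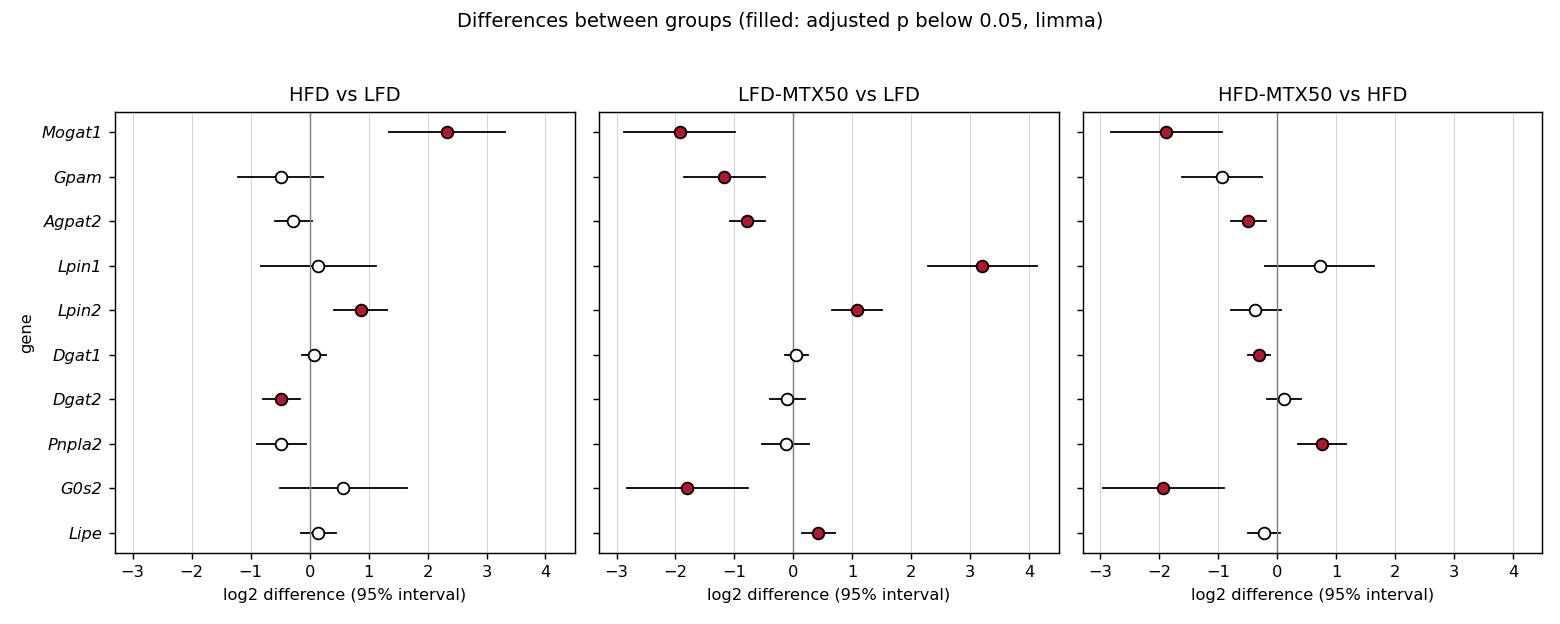
Log2 differences of the 10 genes in HFD vs LFD, LFD-MTX50 vs LFD and HFD-MTX50 vs HFD, with 95% intervals from the model, filled where the limma adjusted p is below 0.05. Lpin1 in LFD-MTX50 vs LFD lies farthest from 0 (3.20), and Gpam is unfilled in HFD-MTX50 vs HFD (-0.94).

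The first comparison asked what the high fat diet alone did to these genes. Of the 10 genes, 3 passed the limma test at an adjusted p below 0.05, Mogat1 and Lpin2 higher and Dgat2 lower in HFD, where 28.3% of all 19597 genes were called (18% higher and 10.4% lower). The groups did not overlap for 3 genes (40.3% of all genes), Mogat1, Lpin2 and Agpat2, the last of which was not called. The median difference of the 10 was 0.11, beside 0.08 over all genes. Since all LFD mice lay on a slide of their own, the slide was also fitted as a random block, and 0 of the 10 genes were then called by limma, against 198 of all genes called higher and 182 lower (5227 of all genes at an unadjusted p below 0.05). The normexp background model, whose fitted background mean fell below -100 on 7 of the 18 arrays, also gave 0 calls among the 10, with 2951 of all genes at an unadjusted p below 0.05. Scaling each array on its median in place of the 75th percentile turned the split of all called genes from 3522 higher and 2033 lower to 2449 and 3017.

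Methotrexate on the low fat diet gave 7 calls, Mogat1, Gpam, Agpat2 and G0s2 lower and Lpin1, Lpin2 and Lipe higher in LFD-MTX50, against 28.1% of all genes called (17.6% higher and 10.5% lower). The groups were apart for 4 genes (29.1% of all genes), and the median difference was -0.12 beside 0.10 over all genes. A random block for the slide left 2 calls, Lpin1 and Agpat2, the same genes as under normexp, and these passed in each of the 13 alternative settings and without any 1 array. No slide held mice of both groups, so drug and slide cannot be told apart in this comparison, with or without the block. Median scaling turned the split of all called genes from 3450 higher and 2053 lower to 2229 and 2757. In this comparison the erythroid marker list moved as well, its 3 measured genes, 2 of them well above background on every array, summing to 3.12 to 3.70 in LFD and 0.464 to 1.08 in LFD-MTX50, while the macrophage list of 5 genes lay at 24.9 to 37.7 in the untreated and 17.3 to 23.6 in the treated mice. Of that list only Cd68 passed the test (-0.94, limma adjusted p = 0.017), Adgre1 being at -0.40 and Clec4f (0.33), Vsig4 (0.32) and Marco (0.48) at differences of the other sign. The neutrophil list lay at 0.561 to 0.910 in the untreated and 0.529 to 6.29 in the treated mice, with 1 of its 4 genes called (Ngp, limma adjusted p = 0.044), which was well above background in 0 of 4 LFD and 4 of 5 LFD-MTX50 mice. Their part in the result was not tested.

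On the high fat diet 5 genes were called, Mogat1, Agpat2, Dgat1 and G0s2 lower and Pnpla2 higher in HFD-MTX50, where 11.0% of all genes were called (4.83% higher and 6.13% lower). The groups were without overlap for 5 genes (11.4% of all genes), among them Gpam, which was not called, but not Mogat1. The median difference was -0.34, beside -0.04 over all genes. None of the 5 calls held without HFD mouse 3 or without HFD mouse 4 (lowest limma adjusted p = 0.074 and 0.075), when the calls over all genes also went from 946 higher and 1202 lower to 158 and 142, and to 141 and 141. 3 calls, Mogat1, Pnpla2 and G0s2, were left without HFD mouse 2 or without HFD-MTX50 mouse 3. With only these 2 groups in the fit, 0 genes of the array were called by limma (4951 at an unadjusted p below 0.05), and with normexp also 0 (1064).

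Within the slide that held both high fat groups, with 2 mice on each side, the differences ran the same way as over all mice. They were -1.96 for Mogat1, -0.59 for Agpat2, -0.36 for Dgat1, 1.18 for Pnpla2 and -2.46 for G0s2, and with the slide as a fixed block Pnpla2 and G0s2 passed the test (limma adjusted p = 0.013 and 0.044). Among the mice on the other slides the same differences were -1.71, -0.42, -0.25, 0.38 and -1.55. The macrophage list lay at 32.0 to 42.6 in HFD-MTX50 and 16.9 to 34.1 in HFD, with overlap and with 0 of its 5 genes called by limma (lowest adjusted p = 0.052). The neutrophil list ranged from 0.732 to 47.8 with a median of 4.59 in HFD-MTX50 and from 0.536 to 1.5 in HFD, mice 1 and 2 of the treated group lying within the HFD range, and 0 of its 4 genes were called by limma (lowest adjusted p = 0.060). Their part in the result was not tested. HFD vs LFD and HFD-MTX50 vs HFD share the 4 HFD mice, so that opposite signs in both, as for Mogat1 (2.33 and -1.88), are not independent of each other.

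**Figure D3:**
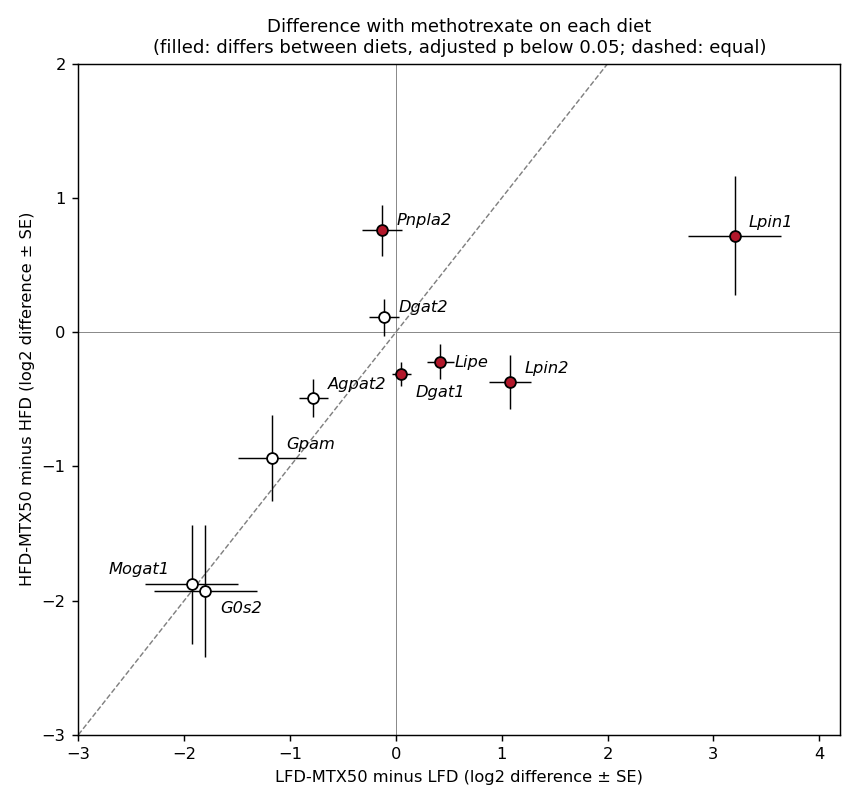
Difference with methotrexate on the low fat diet (x axis) and on the high fat diet (y axis) for the 10 genes, in log2 units with SE bars; the dashed line marks equal differences and filled points differ between the diets at a limma adjusted p below 0.05. Mogat1, G0s2, Gpam and Agpat2 lie near the line in the lower left, while Lpin1 (3.20 and 0.72), Lpin2, Lipe, Dgat1 and Pnpla2 lie off it.

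Whether the effect of methotrexate depended on the diet was tested as the difference between both treatment effects, HFD-MTX50 minus HFD against LFD-MTX50 minus LFD, which share no mice. It passed the limma test for 5 of the 10 genes, where 26.8% of all genes were called (8.66% higher and 18.1% lower), and the median over the 10 was -0.04 beside -0.11 over all genes. The dependence was -2.48 ± 0.62 SE for Lpin1 (limma adjusted p = 0.011) and -1.44 ± 0.28 SE for Lpin2 (limma adjusted p = 0.0057). The methotrexate difference of Lpin1 was 3.20 on the low fat diet and 0.72 on the high fat diet. For Lpin2 it was 1.08 and -0.37, so the sign turned, though neither high fat difference passed the test. Lipe (-0.65 ± 0.18 SE, limma adjusted p = 0.019) and Dgat1 (-0.35 ± 0.13 SE, limma adjusted p = 0.047) also went the lower way, whereas Pnpla2 went higher (0.88 ± 0.27 SE, limma adjusted p = 0.024).

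For Mogat1, Agpat2 and G0s2, which fell with methotrexate on both diets, and for Gpam, which passed the test on the low fat diet alone, a dependence on diet was not detected. It was 0.06 for Mogat1 (95% interval -1.27 to 1.38), 0.23 for Gpam (-0.74 to 1.20), 0.30 for Agpat2 (-0.12 to 0.72) and -0.13 for G0s2 (-1.58 to 1.32), so that differences of about 1 in log2 units lie within the intervals of 3 of them. Without LFD mouse 2, HFD mouse 3 or HFD mouse 4, 3 calls were left, those of Lpin1, Lpin2 and Lipe, a random block for the slide left only that of Lpin2, and with normexp 0 (1342 of all genes at an unadjusted p below 0.05). Median scaling turned the split of all called genes from 1697 higher and 3546 lower to 2491 and 2392. The Dgat1 call was lost without any 1 of 14 of the 18 arrays (limma adjusted p up to 0.096).

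Compared under treatment, HFD-MTX50 and LFD-MTX50 livers differed in 5 genes, where 16.1% of all genes were called (7.37% higher and 8.75% lower), and did not overlap for 2, Mogat1 and Lipe (6.13% of all genes). Mogat1 was 5.24-fold higher on the high fat diet without overlap (2.39 ± 0.42 SE, limma adjusted p = 0.0057, exact permutation p = 0.0079), and Lpin1 was 5.01-fold lower (-2.32 ± 0.41 SE, limma adjusted p = 0.0059, exact permutation p = 0.016), the groups overlapping through HFD-MTX50 mouse 2. Lipe (-0.49 ± 0.12 SE, limma adjusted p = 0.017, exact permutation p = 0.0079), Dgat1 (-0.28 ± 0.08 SE, limma adjusted p = 0.035, exact permutation p = 0.016) and Lpin2 (-0.58 ± 0.19 SE, limma adjusted p = 0.045, exact permutation p = 0.040) were lower. Under normexp the signs of Lipe (0.43) and Dgat1 (0.33) turned. The Lpin2 call was lost without any 1 of 14 of the 18 arrays, and that of Dgat1 without any 1 of 6. The groups share no slide, and all 5 calls were lost with the slide as a random block, when 9 of all genes were called higher and 9 lower (3834 at an unadjusted p below 0.05), as they were with normexp and with only these groups in the fit. Against untreated LFD livers, HFD-MTX50 livers differed in 2 genes, Gpam and Agpat2 (-0.76 ± 0.14 SE, limma adjusted p = 0.0077, exact permutation p = 0.016), where 6.85% of all genes were called (3.81% higher and 3.04% lower), and did not overlap for 3, these and Dgat2 (12.7% of all genes). Both calls were lost with a random block for the slide, when 0 of all genes were called higher and 3 lower by limma (2514 at an unadjusted p below 0.05).

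**Figure D4:**
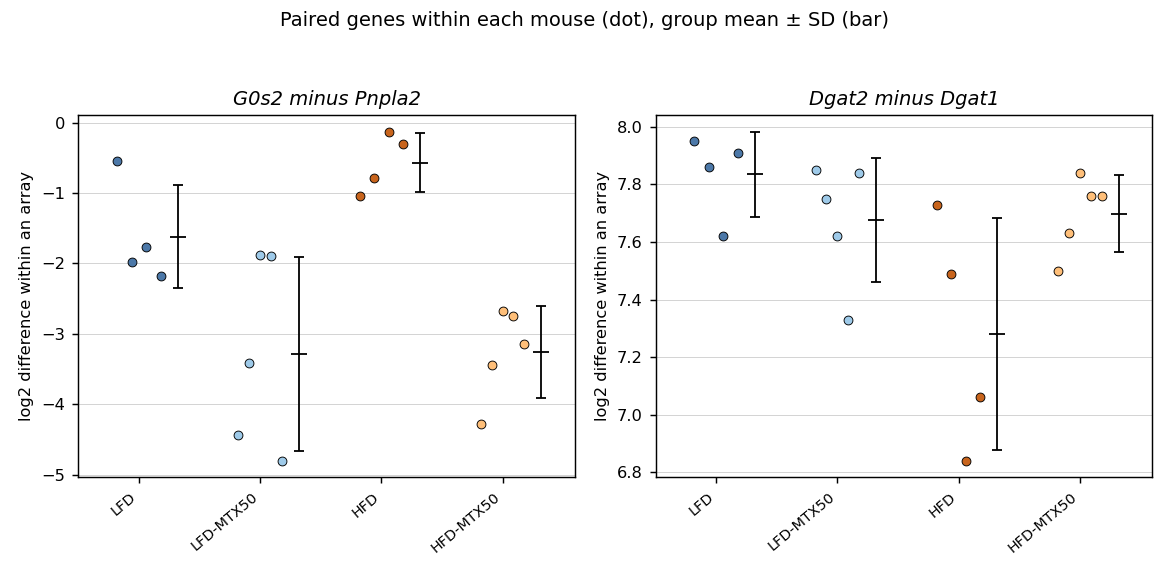
Log2 level of G0s2 minus that of Pnpla2 (left) and of Dgat2 minus that of Dgat1 (right) within each array, 1 dot per mouse, with group mean ± SD. The 5 HFD-MTX50 mice lie at -4.28 to -2.68 for G0s2 minus Pnpla2, all below the 4 HFD mice at -1.04 to -0.12.

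Pairs of genes were also compared within each array, which removes a shift common to all probes of an array and shows only whether both genes changed unequally. Background correction and quantile normalization can still alter such a difference. The sign of Dgat2 minus Dgat1 turned under normexp on the high fat diet and under quantile normalization on the low fat diet. G0s2 minus Pnpla2, the inhibitor against the lipase it binds, averaged -0.57 ± 0.42 (SD, n = 4) in HFD and -3.25 ± 0.65 (SD, n = 5) in HFD-MTX50, a difference of -2.68 with no overlap (exact permutation p = 0.016, adjusted over 6 tests 0.095). It was -1.62 ± 0.74 in LFD and -3.29 ± 1.37 in LFD-MTX50, a difference of -1.67 with overlap (exact permutation p = 0.111), and HFD lay 1.05 above LFD (exact permutation p = 0.086). Dgat2 minus Dgat1, the enzymes of the last step, differed by -0.55 with diet, by 0.42 with methotrexate on the high fat diet and by -0.16 on the low fat diet (exact permutation p = 0.057, 0.063 and 0.238). None of the 6 passed after adjustment, and with 4 against 5 mice the smallest exact p is 0.016, or 0.029 with 4 against 4.

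The rest of the pathway was read from lists of other genes in the same steps. Of 15 other genes of glycerolipid synthesis, HFD vs LFD called 2 higher and 1 lower, beside 18% and 10.4% of all genes, namely Gpat3 (1.98 ± 0.34 SE, 3.96-fold, limma adjusted p = 0.0032), Mogat2, a second monoacylglycerol acyltransferase (0.68 ± 0.19 SE, limma adjusted p = 0.019), and the lipid phosphate phosphatase Plpp2 (-0.76 ± 0.19 SE, limma adjusted p = 0.011). With methotrexate, Gpd1, which makes glycerol-3-phosphate, fell on both diets, by 0.99 on the low fat diet (limma adjusted p = 0.0035) and by 0.81 on the high fat diet (limma adjusted p = 0.019). On the low fat diet 3 were lower and 0 higher, beside 10.5% and 17.6% of all genes, the others being Gpat4 (-0.52 ± 0.19 SE) and Lclat1 (-0.39 ± 0.12 SE). On the high fat diet 1 was lower, Gpd1, and 1 higher, Plpp2 (1.09 ± 0.18 SE, limma adjusted p = 0.0067), beside 6.13% and 4.83% of all genes. Gpat3, an acyltransferase of the same first step as Gpam, stood at -2.54 without and -2.28 with methotrexate on the low fat diet and at -0.56 and 0.01 on the high fat diet, and was not called with methotrexate on either diet. The Mogat2 call was lost without HFD mouse 3 or 4, and that of Lclat1 without LFD mouse 2 or 3. That of Gpat4 held in only 7 of the 18 fits with 1 array left out and in 5 of 11 other settings. The list medians were -0.02 for diet, 0.00 for methotrexate on the low fat diet and 0.19 on the high fat diet, beside 0.08, 0.10 and -0.04 over all genes.

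**Figure D5:**
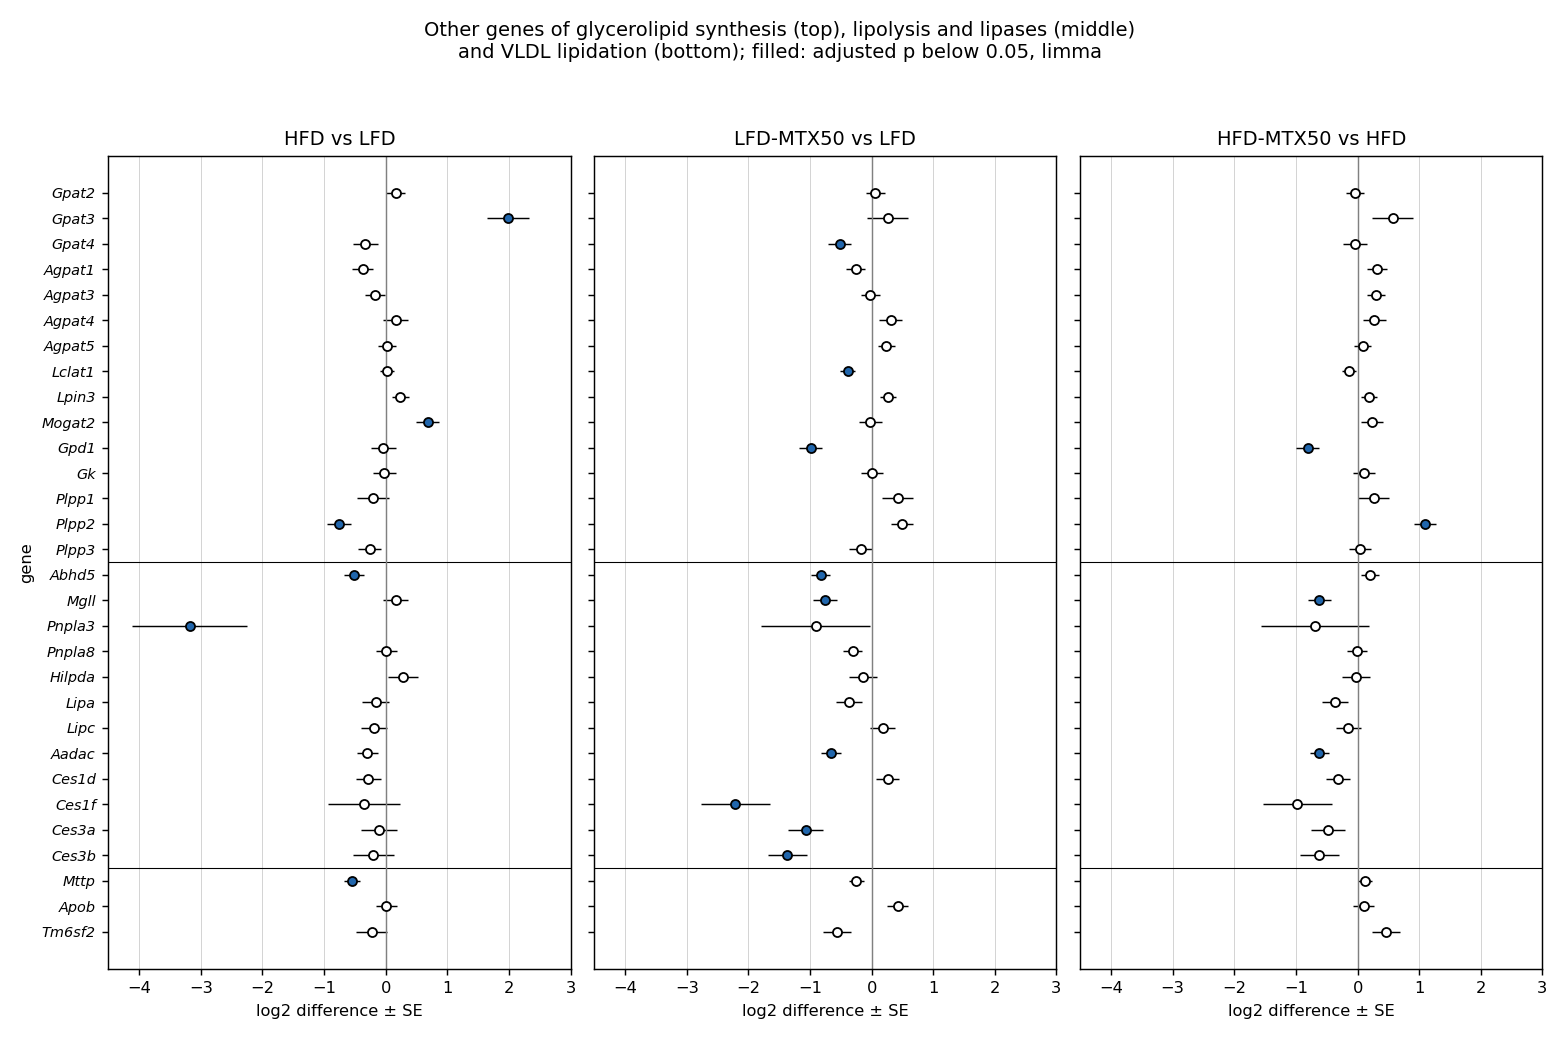
Log2 differences ± SE of 30 other genes of the pathway in HFD vs LFD, LFD-MTX50 vs LFD and HFD-MTX50 vs HFD, by list, filled where the limma adjusted p is below 0.05. Gpat3 in HFD vs LFD (1.98) and Ces1f in LFD-MTX50 vs LFD (-2.21) are among the filled points farthest from 0, and the wide bars are those of Pnpla3.

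Of 12 other genes of lipolysis and lipases, 6 fell and 0 rose with methotrexate on the low fat diet, beside 10.5% of all genes lower and 17.6% higher, and the list median was -0.71 beside 0.10 over all genes. The 5 with the largest changes were Abhd5 (CGI-58), the coactivator of Pnpla2 (-0.83 ± 0.15 SE, limma adjusted p = 0.0023), Mgll, the monoacylglycerol lipase (-0.76 ± 0.19 SE), the carboxylesterases Ces1f (-2.21 ± 0.56 SE, 4.64-fold, limma adjusted p = 0.011), Ces3a (-1.07 ± 0.28 SE) and Ces3b (-1.37 ± 0.32 SE). On the high fat diet 2 fell, Mgll and the deacetylase Aadac (both -0.62, limma adjusted p = 0.047 and 0.027), beside 6.13% of all genes, with a list median of -0.42 beside -0.04 over all genes. The Mgll and Aadac calls were lost without HFD mouse 3 or 4, as was that of Gpd1. The Mgll call on the high fat diet held in only 7 of the 18 fits with 1 array left out and in 4 of 12 other settings.

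Abhd5 acts on Pnpla2 the opposite way to G0s2. Its mean went from 1.41 without to 0.58 with methotrexate on the low fat diet and from 0.89 to 1.10 on the high fat diet, and its treatment effect depended on the diet (1.04 ± 0.21 SE, limma adjusted p = 0.0061). With the diet alone 2 of the 12 were lower (10.4% of all genes), with a list median of -0.19 beside 0.08 over all genes. They were Abhd5 (-0.52 ± 0.16 SE) and Pnpla3, a patatin-like relative of Pnpla2 (-3.18 ± 0.93 SE, limma adjusted p = 0.020), which was well above background in 4 of 4 LFD and 3 of 4 HFD mice. The Pnpla3 call was lost without LFD mouse 3 or HFD mouse 4, and that of Abhd5 without LFD mouse 2 or 3 or HFD mouse 3 or 4. Of 3 genes that load triglyceride onto lipoproteins, Mttp, the microsomal transfer protein, was lower in HFD (-0.55 ± 0.13 SE, limma adjusted p = 0.0086), and 0 of the 3 were called with methotrexate on either diet. Tm6sf2 showed a dependence on the diet (1.02 ± 0.33 SE, limma adjusted p = 0.032), a call that held in only 7 of the 18 fits with 1 array left out.

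The genes whose pattern over the 18 arrays was most like that of Mogat1 and Gpam were found by the root mean square difference in log2 units after centring each gene on its own mean, among 19401 genes with a value on every array. For Mogat1, whose own spread by that measure was 1.64, they were Sema5b (0.59), Adgrv1 (0.76) and Lamb3 (0.76). The means of Sema5b were -3.26 and -5.09 for untreated and treated mice on the low fat diet, and -0.88 and -2.32 on the high fat diet. For Gpam, with a spread of 0.72, they were Acsl5, an acyl-CoA synthetase (0.32), Zfp296 (0.33) and Lactb2 (0.34). Acsl5 averaged 3.35, 2.28, 2.83 and 2.12 in the same order of groups.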

How the data were processed

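RNA of 18 livers was hybridised to 1-colour Agilent arrays, and per the file headers the authors used Agilent Feature Extraction 10.7.3.1 on the scans, so that the deposited values are background-subtracted spot intensities of each array, not normalized between arrays. The labels name Trizol with an RNeasy kit for the RNA and a Low RNA Input kit for labelling, whereas the study's methods name RNeasy and Quick Amp. The deposited table of the whole series holds intensity values of the same arrays and served as an alternative. From the deposited processed intensities, log2 values were computed here and shifted by each array's 75th percentile, spots of a probe were averaged, control spots and outlier spots (124 to 294 per array) were left out, and 35738 of 39429 probes that were well above background on at least 4 arrays were kept. Probes were named through their transcript identifier (28025 probes, 71.1%), and a gene was read from its probe of highest mean signal.

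All 4 groups entered 1 limma fit (limma 3.58.1, R 4.3.3) with empirical Bayes moderation and Benjamini-Hochberg adjustment over the 35738 probes kept, shares of all genes count 1 probe for each of 19597 genes, and a gene was called at an adjusted p below 0.05. Intervals are 95% from the same fit. Exact permutation tests were two-sided (SciPy 1.17.1, pandas 2.3.3, Python 3.11.15), with a smallest p of 0.029 for 4 against 4 mice, 0.016 for 4 against 5 and 0.0079 for 5 against 5. Each sample is 1 mouse, and the number of arrays limits the precision. The script was tested on simulated data. The genes and lists were chosen with earlier results of these data known. Named were all 10 genes with each of their probes, at most 5 called genes per list and comparison by size of change, and the 3 genes nearest to Mogat1 and to Gpam in pattern. Alternatives were other background corrections, scalings and filters, slide and replicate blocks, the methods' t-test (unadjusted p up to 0.015, and adjusted), the mean of a gene's probes and leaving out each array. The normexp model was fitted to median spot and background signals (offset 50), and subtraction of the local background was added after seeing the data. Same-numbered mice did not deviate together (median correlation -0.0208, above 0.1 in 7 of 25 pairs), so the numbers were not taken as pairs.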

Additional observations from a re-analysis of the deposited data

Results flagged for a closer look

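G0s2 in HFD-MTX50 mouse 1 stood apart from its group at -1.61, where the other 4 mice lay between -0.35 and 0.08. Of the 40 sets of a gene and a group checked in this way, chance gives about 1 in 20, and 1 was found.

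For 5 genes the effect of methotrexate differed between the diets by the test of the difference itself, with 1 value each on the log2 scale (high fat minus low fat). It was -2.48 for Lpin1, -1.44 for Lpin2, -0.65 for Lipe, -0.35 for Dgat1 and 0.88 for Pnpla2.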

How the results depend on the processing

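Calls among the 10 genes depended on the slide, on the background model and on single mice, and the cause was not tested. For HFD vs LFD (3 calls), normexp and the slide as a random block each left 0. Leaving out 1 array gave 2 to 4. For LFD-MTX50 vs LFD (7), normexp and the random slide block each left 2, and the methods' t-test 4, adjusted or unadjusted. Leaving out 1 array gave 5 to 7. For HFD-MTX50 vs HFD (5), normexp, the adjusted t-test and a fit restricted to these 2 groups gave 0, the fixed slide block 2 and median scaling 3. Leaving out 1 array gave 0 to 5. For the dependence on diet (5), normexp gave 0, quantile normalization 2 and the random slide block 1. Leaving out 1 array gave 3 to 5. All 5 calls of HFD-MTX50 vs LFD-MTX50 and both of HFD-MTX50 vs LFD were lost with the random slide block and with the adjusted t-test. The replicate number as a replicate block left 1 call, Pnpla2, in HFD-MTX50 vs HFD, and gave 4 calls for diet, 7 for methotrexate on the low fat diet and 5 for the dependence on diet.

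Under normexp the median over all genes was 0.378 for diet, 0.391 and 0.468 for methotrexate on the high and the low fat diet and 0.718 in HFD-MTX50 vs LFD, and signs turned for Gpam (0.12 with diet, and for HFD-MTX50 0.33 against HFD, 0.58 against LFD-MTX50 and 0.46 against LFD), Dgat1 (0.36, 0.33 and 0.76 for HFD-MTX50 against HFD, LFD-MTX50 and LFD), Lipe (0.79, 0.43 and 1.66 likewise), Dgat2 (-0.02 in HFD-MTX50 vs HFD), Agpat2 (-0.11 in HFD-MTX50 vs LFD-MTX50), Pnpla2 (-0.16 in HFD-MTX50 vs LFD), the dependence on diet of Mogat1 (-0.78) and G0s2 (0.03), and Dgat2 minus Dgat1 on the high fat diet (-0.37). With local background subtraction the dependence of Mogat1 was -0.46. With quantile normalization signs turned for Dgat1 (-0.06 in HFD vs LFD, -0.09 in LFD-MTX50 vs LFD), Lipe (-0.06 in HFD vs LFD), Dgat2 (-0.15 in HFD-MTX50 vs HFD, -0.07 for the dependence), Agpat2 (-0.01 for the dependence, -0.04 in HFD-MTX50 vs LFD-MTX50) and Dgat2 minus Dgat1 on the low fat diet (0.01). With median scaling they turned for Dgat1 (-0.02 with diet, -0.05 with methotrexate on the low fat diet) and the dependence of G0s2 (0.01), with the series table for Dgat1 on the low fat diet (-0.03), and with the mean of both probes for Agpat2 in HFD-MTX50 vs LFD-MTX50 (-0.05). Leaving out 1 array moved Lpin1 in HFD vs LFD from -0.01 to 0.33, Dgat2 in HFD-MTX50 vs HFD from -0.01 to 0.24, the dependence of Mogat1 from -0.27 to 0.37, of Gpam from -0.03 to 0.47 and of G0s2 from -0.47 to 0.22, Agpat2 in HFD-MTX50 vs LFD-MTX50 from -0.07 to 0.11, and Lipe in HFD-MTX50 vs LFD from -0.12 to 0.01. Of 1840 gene values under alternatives, 1618 kept direction and call. The fixed slide block could not be fitted for other comparisons, and the fit of 2 groups and the t-test do not apply to the dependence on diet.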
